A study of Drosophila melanogaster with 6 samples.

Results

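The truncation sites described here lay at T in 3' UTRs of mRNAs from S2R+ cells, a Drosophila melanogaster line of haemocyte-like character, and were mapped by miCLIP. Members were all listed truncations that the authors labelled 3' UTR and for which they gave T as the truncated base. There were 1471 of them among 22917 truncation sites in all (6.42%), in 793 genes, and they made up 46.5% of the 3166 truncations labelled 3' UTR. Truncations at A with the same label numbered 1362 in 784 genes, and those at T labelled coding numbered 3646 in 1530 genes. The study had 6 samples of untreated S2R+ cells grown in serum-supplemented Schneider's medium. They were 4 replicate immunoprecipitations (IPs) of fragmented poly(A) RNA with an anti-m6A antibody, 1 IP without crosslinking and 1 input of fragmented mRNA. The listed values are combined over the IPs that share a site, so no value per replicate, SD or test over samples can be given, and the controls are not analysed here.

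N6-methyladenosine (m6A) is a methyl mark on adenosine, written by a nuclear methyltransferase complex and bound by YTH-domain readers. In miCLIP, ultraviolet light crosslinks the antibody to RNA, and reverse transcriptase either misreads a base near the crosslink, seen as a C-to-T change, or stops beside it, which leaves a truncated cDNA. The 3' UTR lies between the stop codon and the poly(A) tail and holds binding sites for proteins and microRNAs that govern the stability, translation and location of an mRNA. T in the list stands for U in the RNA. A truncation at T is therefore not itself on an adenosine, and the bases around it were not used here.

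Of 10 haemocyte marker genes 3 bore a member, with 1 site each, and 6 bore some listed site. The 3 were the peroxidasin gene Pxn, the scavenger receptor gene crq and the matrix gene SPARC. Hml, NimC1, He and Col4a1 had no listed site. Over protein-coding genes outside the mitochondrial genome 5.66% bore a member, and 20.3% of those with any listed site did. Site lists do not measure expression, so these counts do not check the cell label. A gene with no site is not thereby shown to be silent.

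The authors' part label was compared with gene models of dm6. Of the 1471 members, 1379 (93.7%, 95% Wilson interval 92.4% to 94.9%) lay in an annotated 3' UTR of the named gene. Another 63 (4.28%) lay in an annotated 5' UTR of that gene, 25 in coding sequence and 1 in an intron, and 3 had no matching gene on that strand. The same comparison placed 1074 of 1362 truncations at A (78.9%, 76.6% to 80.9%) in annotated 3' UTRs and 257 (18.9%) in annotated 5' UTRs. Of those in annotated 5' UTRs, 57 of 63 at T and 239 of 257 at A were on the plus strand. Distances below use the 1379 members and 1074 sites at A in annotated 3' UTRs. Among these members 79 were coding in another isoform, 10 lay in 3' UTRs of more than 1 gene on the same strand, and 45 faced a 3' UTR on the opposite strand.

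Most genes held a single member. 482 genes had 1, 163 had 2, 113 had 3 to 5, and 35 had 6 or more, and those 35 genes held 259 of the sites. Of the 793 genes, 348 (43.9%) also had a truncation at A labelled 3' UTR, 629 (79.3%) a coding truncation, 572 (72.1%) a 5' UTR truncation and 440 (55.5%) a C-to-T site anywhere. As background for the first share, 784 genes in all had such a truncation at A. Any listed site was found in 3902 protein-coding genes outside the mitochondrial genome. For the other kinds the share over all listed genes is not given here. In 41 genes (5.17%) the members were the only listed sites. In 399 genes every truncation labelled 3' UTR was at T, which covered 538 members, and in 394 genes every one was at A (the other genes also had sites of another base, G and C included). In most T-only genes this rested on 1 site, as 96 of the 399 had 2 or more members and 3 had 5 or more. Those 3 were Xrp1, a stress-response transcription factor gene, with 6 sites, the mitochondrial chaperonin gene Hsp60A with 5, and the elongation factor gene eEF5 with 5.

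The most members, 13 each, were found in CG4822 and in pAbp, which encodes the poly(A)-binding protein. The splicing factor 3b subunit gene Sf3b3, the V-ATPase proteolipid gene Vha16-1 and the translation initiation factor gene eIF4H1 had 10 each. The chromatin factor gene Df31, the replacement histone gene His3.3B, ImpL2, which encodes a secreted binder of insulin-like peptides, and sqd, an hnRNP gene, had 9 each. Hrb27C, another hnRNP gene, had 8, and the adenylosuccinate synthetase gene Adss, CG3638, the cyclin gene CycG, Sh3beta and the kinesin adaptor gene Unc-76 had 7 each. Counts per gene may move with the abundance and length of the mRNA, which was not tested.

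**Figure D1:**
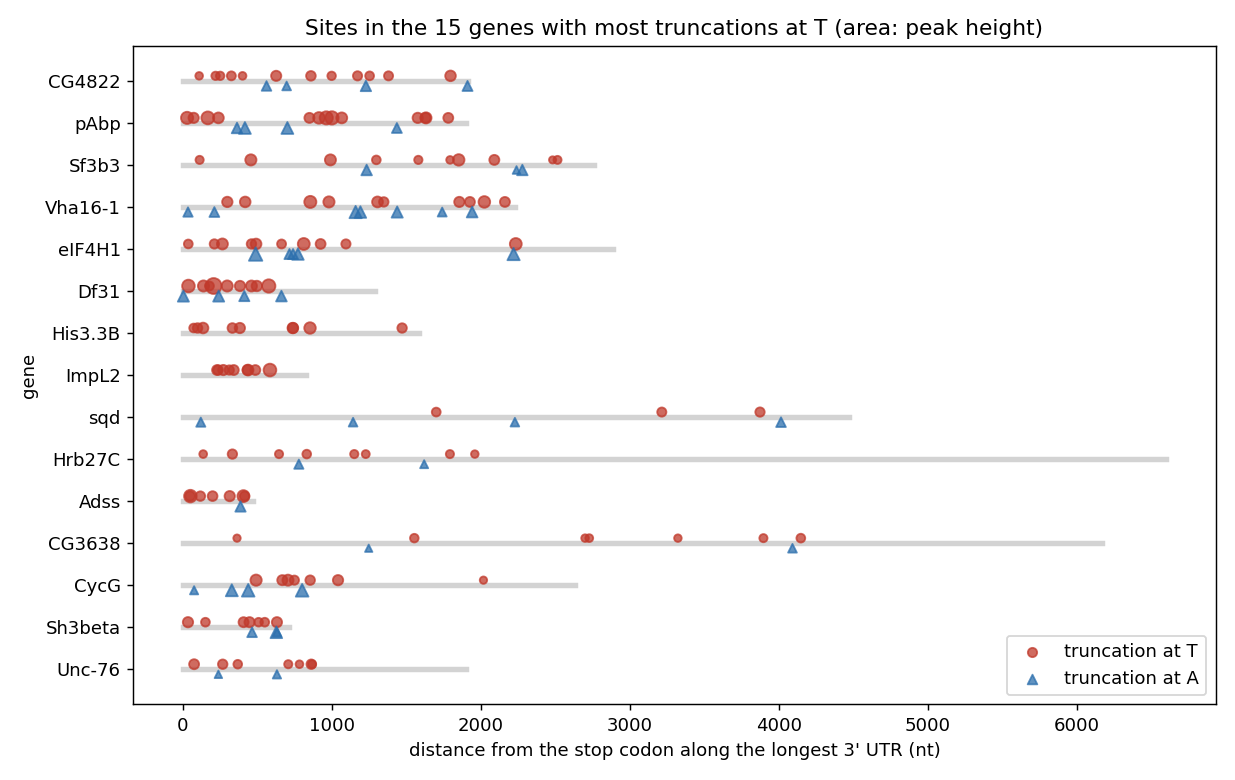
Positions of truncation sites along the longest annotated 3' UTR of the 15 genes with most members (x axis: spliced distance from the stop codon in nt; one row per gene; grey line: the 3' UTR). Red circles are truncations at T, drawn above the line, and blue triangles truncations at A, drawn below it, with an area that follows the authors' peak height; 7 of the 135 sites at T and 1 of the 46 at A do not lie on that isoform and are not drawn, and His3.3B and ImpL2 show no triangle.

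In pAbp (FBgn0265297, chromosome 2R, 18140078 to 18147191, plus strand, dm6) the members ran from 30 to 1783 nt after the stop codon, through a 3' UTR of up to 1904 nt that is split by an intron. Peak height, the authors' measure of how many cDNAs stop at a position, ranged from 19 to 34 with a median of 23. The tallest stood 1002 nt after the stop codon, with a peak height of 34 in 3 IPs. Sites 30, 74 and 240 nt after the stop codon were shared by all 4 IPs, with peak heights of 28.8, 20.6 and 22.6. The one at 30 nt was given by 1 aligner, and those at 74 and 240 nt by all 3. The 4 truncations at A in the same 3' UTR had a median peak height of 24.2 and reached 27.2. Heights at T and at A thus overlapped in this mRNA.

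In His3.3B (FBgn0004828, chromosome X, 9152523 to 9156669, minus strand) all 9 members lay in the 3' UTR of 1589 nt, between 74 and 1473 nt after the stop codon, and no truncation at A was listed there, although others at C were. Their peak heights ran from 15 to 25.6 with a median of 20.7. The tallest, 855 nt after the stop codon, was shared by 4 IPs, as was the one at 384 nt. In ImpL2 (FBgn0001257, chromosome 3L, 4224006 to 4236147, minus strand) the 9 members were gathered between 231 and 586 nt after the stop codon of an 831-nt 3' UTR, a median of 37.5 nt apart. The peak height there was 31.2 at the last of them, in 4 IPs, and 17 to 22.7 at the other 8. No truncation at A was labelled 3' UTR in ImpL2 either, although the gene had 11 C-to-T sites, 3 of them labelled 3' UTR.

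In Df31 (FBgn0022893, chromosome 2L, 21626309 to 21629932, minus strand) the 9 members lay between 39 and 578 nt after the stop codon. The one at 208 nt, with a peak height of 48.7 in 4 IPs, stood above the other 8, which ran from 15.5 to 34.2. The 4 truncations at A in Df31 had a median peak height of 22.8. In CG4822 (FBgn0031220, chromosome 2L, 116970 to 121754, minus strand) the 13 members had even heights, from 11.3 to 21.8 with a median of 15, and were spaced a median of 133 nt apart. sqd and Hrb27C were lower still, with medians of 12.5 and 13, and in sqd the median spacing was 374.5 nt.

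Across all members peak height was low with a long upper tail. The lowest was 5, the median 14.5 (quartiles 10.8 and 20.5) and the highest 177.75. A height of 20 or more was reached by 26.6% of members, 50 or more by 55 (3.74%) and 100 or more by 7 (0.476%). Truncations at A labelled 3' UTR ran from 4.5 to 200, with a median of 15.2 and quartiles of 10.5 and 24, and 98 of them (7.20%) reached 50. Truncations at T in coding sequence had a median of 12.7. The order of T and A in 3' UTRs was not fixed: among sites in annotated 3' UTRs the medians were 14.5 at T and 14.2 at A.

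Members were shared by fewer IPs than their counterparts at A. Of the members, 822 (55.9%, 95% Wilson interval 53.3% to 58.4%) were shared by 2 IPs, 386 (26.2%) by 3 and 263 (17.9%, 16% to 19.9%) by 4. Of the truncations at A labelled 3' UTR, 29.1% (26.8% to 31.6%) were shared by 4 IPs, and of those at T in coding sequence 19.6% (18.4% to 20.9%). In annotated 3' UTRs the shares in 4 IPs were 17.9% at T and 26.7% at A. The intervals cover counting error, and sites of 1 gene are not independent. The difference itself was not tested, since there is no value per sample.

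**Figure D2:**
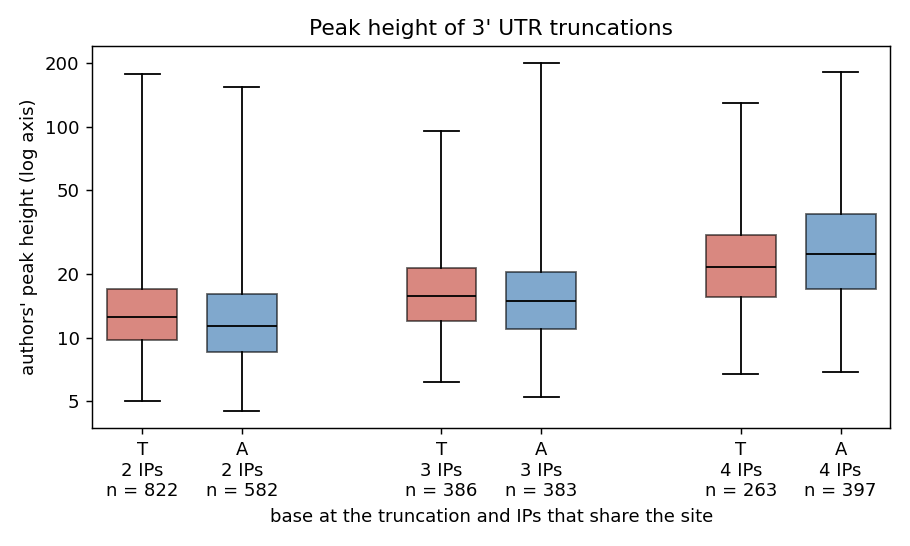
Authors' peak height (log axis) of truncations labelled 3' UTR at T (red) and at A (blue), grouped by the number of IPs that share the site. Boxes span the quartiles with a line at the median and whiskers reach the lowest and highest site; medians are 12.5 at T and 11.3 at A in 2 IPs, 15.7 and 14.8 in 3, and 21.6 and 24.9 in 4.

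Height and support moved together. Members in 2 IPs had a median peak height of 12.5, those in 3 IPs 15.7 and those in 4 IPs 21.6. At A the medians were 11.3, 14.8 and 24.9. With equal support, T was thus the higher base in 2 and 3 IPs and the lower in 4, while the pooled median was lower at T. These medians follow the authors' label. In annotated 3' UTRs they were 12.5 at T and 11 at A in 2 IPs and 15.6 and 14.3 in 3. In 4 IPs they were nearly equal there, at 21.8 and 22.25. Within the 348 genes that had both kinds, the gene's median height was higher at T in 132, higher at A in 213 and equal in 3, and the median of the difference, T minus A, was -1.36. In annotated 3' UTRs it was higher at T in 123 of 300 genes and at A in 174. The tallest of these sites in a gene was at T in 138 and at A in 162 of those 300.

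Support also differed by aligner. All 3 aligners gave 740 members (50.3%), 2 gave 383 (26%) and 1 gave 348 (23.7%), whereas all 3 gave 64.4% of truncations at A labelled 3' UTR and 53.9% of those at T in coding sequence. Novoalign gave 1188 members, BWA 1139 and STAR 1007. Of members given by all 3, 30% were shared by 4 IPs, against 2.01% of those given by 1. At the 740 members of all 3 aligners the median peak height was 16.5 with Novoalign, 15.4 with STAR and 16.3 with BWA.

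The 10 tallest members lay in mRNAs of the translation machinery in 9 cases. Of all 1471 members, 90 lay in ribosomal protein genes and 29 in genes of elongation factors and poly(A)-binding protein. Peak height may move with the abundance of the mRNA, which was not tested. The tallest, at chromosome 2R, 11895068 (plus strand, exon 2 of 2, 102 nt after the stop codon) in eEF1alpha1, which encodes the factor that brings aminoacyl-tRNA to the ribosome, had a peak height of 203 with STAR and 152.5 with BWA, each in 2 IPs. Novoalign did not give it. eEF1alpha1 has a closely related copy, eEF1alpha2, and whether reads were split between them was not tested. Better supported was RpS9 (3L, 9509950, minus strand, exon 3 of 3, 31 nt after the stop codon), at 144.75, 139 and 106.25 with Novoalign, STAR and BWA, each in 4 IPs. RpL36 (X, 628405, minus strand, 57 nt after the stop codon) stood at 131.5, 139.75 and 101.75 and RpL21 (2L, 22247217, minus strand, 9 nt after the stop codon) at 128.5, 128.75 and 99.75, again in 4 IPs with every aligner.

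RpLP2 (2R, 16586639) reached a mean over aligners of 125. RpL8 had 95.5, and RpS3 had 99 from STAR alone in 2 IPs. 2 further sites of eEF1alpha1 had 103.5, from BWA alone in 2 IPs, and 95.4. The one gene outside translation was AnxB11, which encodes an annexin, a calcium-dependent binder of membranes. Its site (X, 16417544, minus strand, 286 nt after the stop codon) had 115.5 with Novoalign and 90.5 with BWA, each in 4 IPs. So 6 of the 10 tallest were shared by 4 IPs, and 3 by 2 IPs.

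Members clustered toward the start of the 3' UTR. They lay a median of 191 nt after the stop codon (quartiles 73 and 409.5), and truncations at A a median of 261 nt (104 and 545). Within 50 nt of the stop codon were 18.1% of members (16.2% to 20.3%) and 14% of truncations at A (12% to 16.2%). Within 100 nt these shares were 31.3% (28.9% to 33.8%) and 24.1% (21.7% to 26.8%), and within 500 nt 80.3% and 72.8%. The 3' UTRs themselves differed in length, with a median of 569.5 nt in the 746 genes with a member and 738 nt in the 675 genes with a truncation at A.

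Density was therefore counted over the same 3' UTRs, those of the 1121 genes with either kind, which span 1186 kb. Because every gene counted bears a site, a short 3' UTR among them has a site near its stop codon and 3' end by construction. Part of the density near either end is thus set by this choice of genes. Per kb there were 3.20 members in the first 25 nt after the stop codon, 3.88 from 26 to 50 nt, 2.65 from 51 to 100 nt and 2.23 from 101 to 200 nt. The density was lower in each later step, at 1.13 per kb from 401 to 500 nt and 0.350 from 1001 to 2000 nt. Truncations at A had 2.09, 2.15, 1.59 and 1.47 per kb in the first 4 steps, and 1.06 and 0.387 in the last 2 named. There were 1.8 sites at T for each at A from 26 to 50 nt, 1.06 from 401 to 500 nt and 0.904 from 1001 to 2000 nt. The T and A positions available at each distance were not counted.

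**Figure D3:**
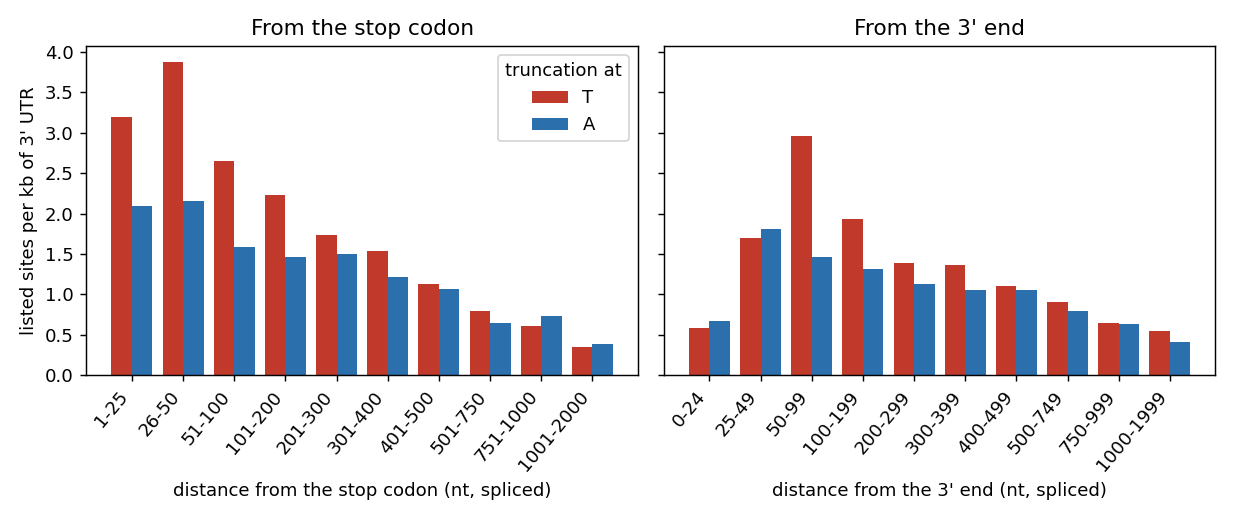
Listed sites per kb of annotated 3' UTR in steps of distance from the nearest stop codon (left) and from the nearest annotated 3' end (right), for truncations at T (red) and at A (blue) over the 1121 genes with either. Steps differ in width and those beyond 2000 nt are not drawn; bars at T peak at 3.88 per kb 26 to 50 nt after the stop codon and at 2.96 per kb 50 to 99 nt before the 3' end.

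The slope was weaker in long 3' UTRs. In the 636 genes whose longest 3' UTR has 500 nt or more, members stood at 1.51 per kb in the first 25 nt, 1.91 from 26 to 50 nt, 1.67 from 51 to 100 nt, 1.71 from 101 to 200 nt and 1.54 from 301 to 400 nt. Over the first 400 nt of these longer 3' UTRs the density was thus nearly level, and it was 0.793 from 501 to 750 nt and 0.350 from 1001 to 2000 nt. Truncations at A ran from 1.06 to 1.39 per kb over the same 400 nt. Without ribosomal protein genes, 28.9% of members and 22.3% of truncations at A lay within 100 nt of the stop codon.

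Near the annotated 3' end, members were scarce in the last 25 nt, at 0.584 per kb, with 1.70 at 25 to 49 nt and 2.96 at 50 to 99 nt from the end. Truncations at A had 0.670, 1.81 and 1.46 per kb. At 50 to 99 nt there were 2.02 sites at T for each at A, and 1.95 without ribosomal protein genes. In 3' UTRs of 500 nt or more the densities in that step were 1.5 at T and 0.833 at A per kb. Peak height changed little along the 3' UTR, with medians at T of 14.8 within 100 nt of the stop codon, 14.6 from 101 to 500 nt and 13.6 beyond.

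The members closest to a stop codon among those in 4 IPs were in vsg (3L, 9716464, 2 nt after the stop codon, peak height 29.1), CG2852 (2R, 22645127, 5 nt, 18.7), RpL35A (3R, 5465702, 6 nt, 65.3), RpL21 (9 nt, 119) and RpS2 (2L, 9896317, 10 nt, 38.6). Each was given by all 3 aligners. The 3 ribosomal protein mRNAs among them have annotated 3' UTRs of 78, 115 and 62 nt at most. Their sites were also within 72 nt of the nearest annotated 3' end, which for RpL21 belongs to an isoform with a shorter 3' UTR.

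The 633 pairs of consecutive members within a gene's 3' UTR, in 284 genes, stood a median of 94 nt apart (quartiles 46 and 195), and the 399 pairs at A, in 217 genes, 114 nt. Both bases had many pairs from 26 nt upward and few from 11 to 25 nt. Pairs at T numbered 5 per nt of distance from 26 to 50 nt, 3.68 from 51 to 75 nt and 2.44 from 76 to 100 nt, but 1.47 from 11 to 25 nt, and 3.1 from 1 to 10 nt. At A they numbered 2.60, 2.36 and 1.28 over those first 3 ranges, 0.533 from 11 to 25 nt and 1.9 from 1 to 10 nt. The sources used here do not say how the site caller treats neighbouring positions, and its part in this gap was not tested.

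**Figure D4:**
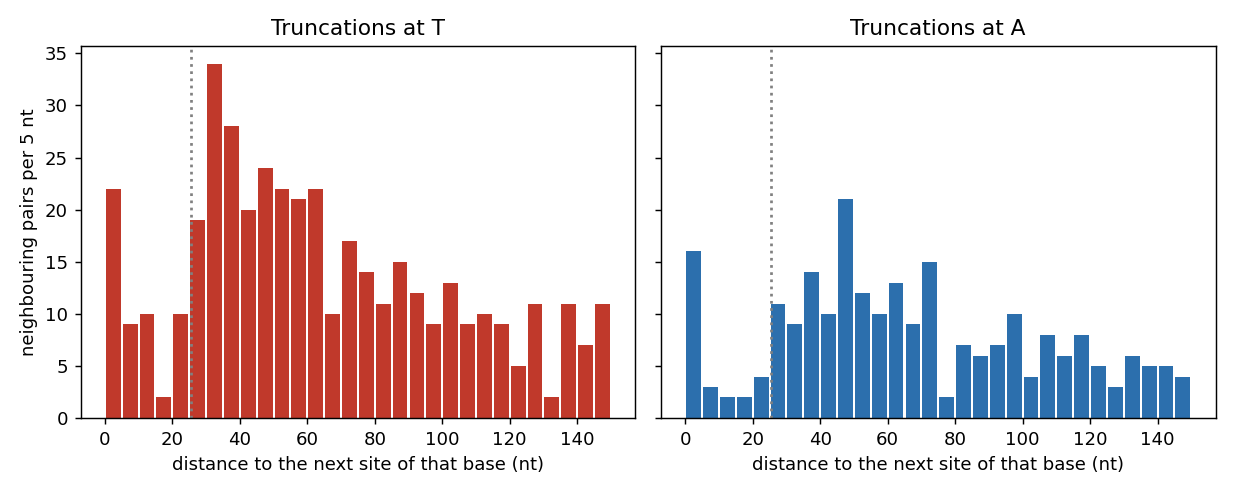
Number of neighbouring pairs per 5 nt of distance between consecutive truncations of the same base in 1 annotated 3' UTR, at T (left) and at A (right). The dotted line stands after 25 nt; of 633 pairs at T, 31 lie within 10 nt and 22 from 11 to 25 nt, and both panels are low between 11 and 25 nt.

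Close pairs of the same base were few. Of the 633 pairs at T, 31 (4.90%, 3.47% to 6.87%) were within 10 nt and 3 were at adjacent positions, against 19 of 399 (4.76%) and 11 at A. All 31 were pairs, with no run of 3 members. Another listed truncation lay within 10 nt of 122 of the 1379 members (8.85%) and of 111 of the 1074 sites at A (10.3%). In 16 of the 31 close pairs at T the 2 sites had no aligner in common, against 34 of the 580 pairs more than 25 nt apart. At A this held for 13 of the 19 close pairs and 24 of the 372 far ones. With the sites of 1 aligner, 8 pairs at T were within 10 nt with Novoalign, 8 with STAR and 7 with BWA. In Adss, for example, STAR alone gave a site 50 nt after the stop codon (peak height 18, 3 IPs). The other aligners gave one at 52 nt (31.5 and 30, 4 IPs each). The close pair of the GTPase gene Arf1 did share aligners. All 3 gave its site at 497 nt, and Novoalign and BWA also gave the one at 499 nt. In the splicing regulator gene B52, STAR gave a site at 111 nt and the other aligners one at 103 nt.

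C-to-T sites seldom stood beside members. A C-to-T site lay within 3 nt of 37 members (2.52%, 1.83% to 3.45%), of 248 truncations at A labelled 3' UTR (18.2%, 16.2% to 20.3%) and of 90 truncations at T in coding sequence (2.47%, 2.01% to 3.02%). In annotated 3' UTRs the shares were 2.18% at T and 14.2% at A. The position differed as well. The C-to-T site was 2 nt downstream of 16 members, 1 nt upstream of 10 and 1 nt downstream of 3, whereas it was 1 nt downstream of 204 truncations at A. Of the 16 members with a C-to-T site 2 nt downstream, 2 had a listed truncation at A in between. In coding sequence, too, 2 nt downstream was the most frequent position at T, with 59 of 3646 sites.

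**Figure D5:**
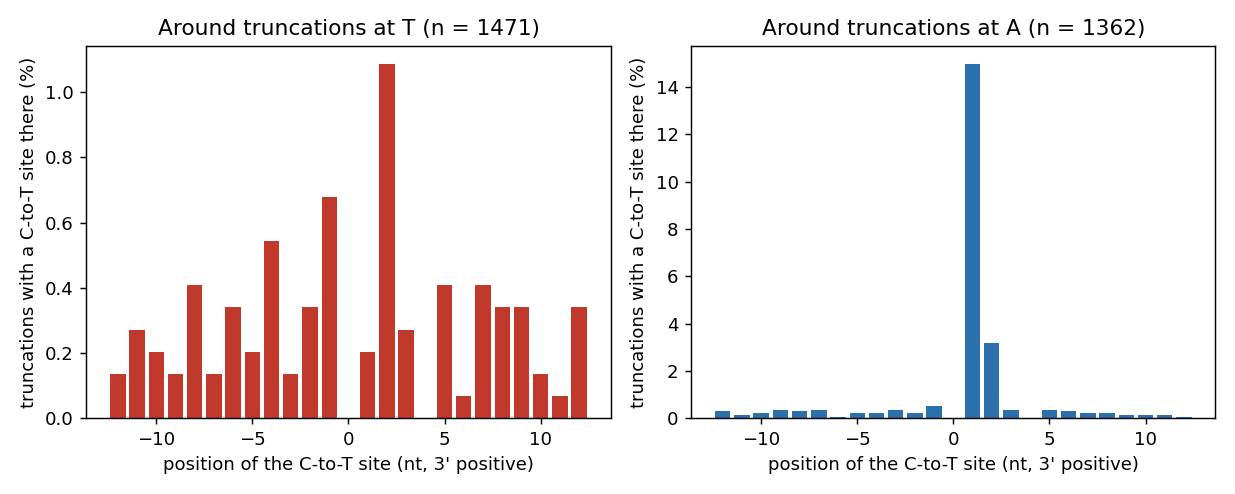
Share of truncations labelled 3' UTR that have a C-to-T site at each position from 12 nt upstream to 12 nt downstream (positive: toward the 3' end), for truncations at T (left) and at A (right). The y axes differ: the highest bar is 1.09% at T, 2 nt downstream, and 15% at A, 1 nt downstream.

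Members with a C-to-T site within 3 nt were taller, with a median peak height of 28.1 against 14.3 for the other 1434, and 11 of the 37 were in 4 IPs. At A the medians were 28.8 with and 13.5 without, and at T in coding sequence 43 and 12.5. The number of tags over the sites was not matched, and its part in this difference was not tested. The tallest members with such a site were those of RpLP2, RpL21 and eEF1alpha1 named above, then RpL10Ab (3L, 11824145, plus strand, exon 3 of 3, 685 nt after the stop codon, peak height 87.2 in 4 IPs) and RpL41 (2R, 24903488, minus strand, 86.1 in 3 IPs). At RpL10Ab the C at 11824147 was read as T in 6.69% of tags, with 512 tags over it. At RpL21 the C at 22247215 was so read in 0.711% of tags, with 1128.5 tags over it, and at RpLP2 the C at 16586641 in 3.32%, with 354 tags over it. The percentages and the tag numbers are separate means over the IPs that share the C-to-T site and over aligners, so a percentage is not a share of the tag number beside it. A truncation at A lay within 3 nt of 36 members (2.45%).

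Gene groups were described by how many of their genes bore a member. Over 13973 protein-coding genes outside the mitochondrial genome 5.66% did, and over the 3902 of them with any listed site 20.3%. Because an mRNA must be expressed to be listed, the second share is the closer background, and no group was tested against it. Ribosomal protein genes bore members in 55 of 93 cases, or 64.7% of the 85 with any site. Their 90 members had a median peak height of 40.7 and a median distance of 52.5 nt from the stop codon, against 14.5 and 191 nt for all members, and 34.4% were in 4 IPs. Neither mRNA abundance nor 3' UTR length was matched in this comparison, and their part in it was not tested. RpS15Aa led with 5 sites (heights 27 to 70.2), then RpL24 with 4 (24.4 to 74.7), RpL10Ab with 3 (36.2 to 91.5) and RpL13A with 3 (44 to 52.2), all 3 of the last in 4 IPs.

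Of 8 elongation factor and poly(A)-binding protein genes 6 bore members, or 85.7% of those with any site. Their 29 members had a median height of 31.9. eEF1alpha1 had 7 (54.2 to 177.75), eEF5 had 5 (29.5 to 49.1) within 34 to 130 nt of the stop codon, and eEF2, the translocation factor gene, had 2 (50.7 and 63.7). Chaperone genes bore members in 12 of 23 cases, or 63.2% of those with any site, with a median height of 19.8. The endoplasmic reticulum chaperone genes Gp93 and Hsc70-3 had 6 each, and Hsp60A had 5 of even height (17.4 to 20.4), 4 of them in 4 IPs and none accompanied by a truncation at A. Glycolytic genes bore members in 5 of 12 cases (41.7%), all 12 having some site. The enolase gene Eno held 4 of the 8 sites (19.4 to 74.2). Oxidative phosphorylation genes bore 17 members in 11 of 27 cases, or 44.0% of those with any site. The ATP synthase gene blw led with 4.

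Cytoskeleton genes bore members in 20 of 26 cases, or 87.0% of those with any site, and 11 of the 26 had a truncation at A labelled 3' UTR. More genes at T than at A were not particular to this list. The counts were 55 and 42 for ribosomal protein genes and 12 and 7 for chaperone genes. The order was opposite for splicing and export genes (6 and 8) and for genes that act on 3' UTRs or in mRNA decay (6 and 9). The actin gene Act5C had 6 (16 to 26.3), Moe, which links actin to the membrane, had 4 (21.3 to 33.9) and Act42A 3 (43.3 to 57.9), and neither actin gene had one at A. Small GTPase genes bore members in 13 of 17 cases (76.5%), all 17 having some site. Their 28 sites had a median height of 15.1, and 1 was in 4 IPs. Rap1 had 4, and Arf1, Rab10 and Rab2 had 3 each. Cdc42, Rac1 and Rho1 count in both the cytoskeleton and the small GTPase list. Both 14-3-3 genes bore them, 14-3-3epsilon with 6 and 14-3-3zeta with 3 (17.7 to 29.1), all 3 in 4 IPs. Of 18 matrix and haemocyte genes 5 bore members, or 45.5% of those with any site. The ferritin subunit gene Fer1HCH held 5 of the 10 sites, all 5 in 4 IPs (28.3 to 41.2).

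Genes of splicing and export RNA-binding proteins bore members in 6 of 21 cases, or 30% of those with any site, and 26 sites, of which sqd had 9, Hrb27C 8 and B52 6. Their median height was 12.9 and their median distance from the stop codon 740 nt. Genes that act on 3' UTRs or in mRNA decay bore members in 6 of 26 cases, or 28.6% of those with any site. They held 7 sites at T and 23 truncations at A. The translational repressor gene brat had 2 (5.25 and 15.4), neither of them in an annotated 3' UTR, the Argonaute gene AGO2 had 1 of height 13.2 in 4 IPs, and Imp had 1 at T and 9 at A. Of 10 genes of the m6A machinery, a list that shares Fmr1 and its 1 member with the one before, 3 bore 5 members, none in 4 IPs. Those 3 were 42.9% of the genes in the list with any site. The nuclear reader gene Ythdc1 had 2 at T (19.5 and 19.7) and 9 at A labelled 3' UTR. In Ythdf, which encodes the cytoplasmic reader, 2 members (7.5 and 9) lay 32 and 152 nt after the stop codon, and Fmr1, the fragile X protein gene of the study's title, had 1 of height 13.3, 333 nt after it.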

How the data were processed

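Per the labels, cells were S2R+ and the m6A antibody was from 1 lot. The submitters' processing notes give the build dm6 and list STAR 2.4.2a, Bowtie 1.1.2 and cutadapt 1.8 among the tools. Per the column legend deposited by the authors, sites were called with CTK from Novoalign, STAR and BWA alignments and listed when 2, 3 or 4 IPs shared them. Other values of the deposited lists are the peak height and number of IPs, given for each aligner. All 52749 peak heights times their number of IPs were whole within 0.001, as for a mean over the sharing IPs. The mean over aligners and the highest number of IPs were used. Whether sites were filtered against the controls, and the depth of the libraries, are not given in the sources used here.

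Sites were placed, 1-based, on models of Ensembl release 115 (BDGP6.54, dm6 coordinates) for the gene the authors named; 791 of 793 names matched a symbol or synonym. Distances ran along the spliced 3' UTR of the isoform with the nearest stop codon (or 3' end), the first base after the stop codon counting as 1. Wilson 95% intervals cover counting error only. Python 3.11.15, pandas 2.3.3 and scipy 1.17.1 were used, and the distance functions were tested on simulated sites. Named were the 15 genes with most members, the 10 tallest, the 5 closest to a stop codon in 4 IPs, the 5 tallest beside a C-to-T site, close pairs, and up to 4 genes of each list. Members and lists were chosen with earlier results of these data known; T-only genes were named after their values were seen. Names eEF3 and smooth in the lists matched no gene. Sequence around the sites was not used here.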

Additional observations from a re-analysis of the deposited data

How the results depend on the processing

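A count of sites or genes was taken as unmoved within 1.5 times the reported count, and any other value within the reported value's 95% interval (for the difference, the range that the intervals of both medians allow). By that rule 25 of 51 recomputed values were unmoved, 23 moved and 3 changed sign. Only 263 sites in 201 genes were in 4 IPs, and 740 sites in 502 genes had all 3 aligners; with 4 IPs the median peak height was 21.6 and no pair lay within 10 nt (0%). The median height was 12.6 over gene medians, 15.5 with Novoalign, 15 with BWA and 15.9 at sites of all 3 aligners. The difference of medians, T minus A in 3' UTRs by the authors' label, was -0.75 as reported, 1.17 in 2 IPs, 0.83 in 3 and -3.33 in 4. Over all sites in annotated 3' UTRs it was 0.31, and in 4 IPs the medians there were 21.8 at T and 22.25 at A. The share in 4 IPs was 30% with all 3 aligners. Neighbours within 10 nt were 0.885% with all 3 aligners, 1.72% with Novoalign, 2.14% with STAR and 1.65% with BWA. Sites within 100 nt of the stop codon were 34.4% in 4 IPs and 28.9% without ribosomal protein genes; windows of 50 and 200 nt gave 18.1% and 51.1%. A C-to-T site stood within 3 nt of 4.18% of members in 4 IPs, within 1 nt of 0.884% and within 10 nt of 5.17% of all members. Where the construction does not show it, the cause was not tested. The settings of 1 aligner and the one without ribosomal protein genes were chosen after seeing the data. So were all values at sites of all 3 aligners except the counts of sites and genes. The same holds for every value at sites with both the authors' label and an annotated 3' UTR. It also holds for the stop codon share in annotated 3' UTRs whatever the label. The planned T-run windows were not run, as sequence was not used here. No paired analysis was possible because values are combined over IPs, which also prevents leaving out a replicate.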
